A study of Mus musculus with 6 samples.

Results

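Genes of cholesterol and fatty acid synthesis that are known targets of sterol regulatory element-binding proteins (SREBPs) were described in CD45-positive cells with intermediate CD11b, a gate that holds microglia, sorted from mouse retina. The 26 genes were chosen by name and fall into a sterol branch of 17 and a fatty acid branch of 9. All 26 were found among the 21851 genes of the deposited table, and all 26 had enough counts to be tested, as did 13477 genes in all. The study compared 3 libraries of genotype CD36 CKO, in which the receptor CD36, which takes up fatty acids and oxidised lipoproteins, is conditionally deleted, with 3 libraries of genotype CD36 flox, whose sample codes read WT. The treatment protocol shared by all labels names sodium iodate, an oxidant that injures the pigment epithelium, given intravenously at 20 mg/kg with buffer as its control and collection after 7 days. Which libraries had which injection, the Cre driver, strain, age and sex are not stated in the sources available.

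SREBPs are transcription factors held in the endoplasmic reticulum membrane. When sterols are scarce, the escort protein SCAP carries them to the Golgi, where proteases release the active part, and when sterols are plentiful, INSIG proteins retain them. SREBP2 mainly drives cholesterol synthesis, whereas SREBP1 mainly drives fatty acid synthesis and is itself induced by the oxysterol-sensing liver X receptors. Microglia synthesise sterols but also take up lipid from debris, and in the retina Müller glia and neurons synthesise lipids too.

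Promoter windows show which sequence features the genes share. For 20 of the 26 genes RefSeq supplied 24 windows (GRCm38.p6) of 300 bases, with 250 bases before and 50 after a transcription start. The sterol regulatory element was searched as TCACNCCAC, the NF-Y box as CCAAT, the Sp1 box as GGGCGG and the E-box as CACGTG, on both strands. Of the 14 sterol genes with a window, 14 held CCAAT in at least 1 window, and 3 of 6 fatty acid genes did, where 37.4% of all 32851 windows held it. GGGCGG gave the same counts, 14 of 14 and 3 of 6, against 35.7% of all windows. These counts are per gene, and some genes have several windows, whereas the shares are per window. Counted by window, 18 of the 24 held CCAAT, 19 held GGGCGG and 4 held CACGTG. TCACNCCAC was in the window of Hmgcs1 only, against 1.24% of all windows, and CACGTG was in those of 4 sterol genes and 0 fatty acid genes, against 7.15%. The windows of 4 genes are printed from 5′ to 3′ on the strand of the gene, with the sterol element and CCAAT (or its complement ATTGG) in capitals: Hmgcs1 as the gene with the sterol element, Cyp51 and Sc5d as the sterol genes whose 3 CKO levels lay below all flox levels, and Fasn from the fatty acid branch.
Hmgcs1, chr13:119690101-119690400, plus strand: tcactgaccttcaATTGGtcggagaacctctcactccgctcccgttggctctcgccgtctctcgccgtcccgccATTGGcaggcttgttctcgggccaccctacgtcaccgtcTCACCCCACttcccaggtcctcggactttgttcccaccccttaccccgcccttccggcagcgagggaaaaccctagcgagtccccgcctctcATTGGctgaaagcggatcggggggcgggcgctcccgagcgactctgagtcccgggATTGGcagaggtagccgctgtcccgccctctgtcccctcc
Cyp51, chr5:4104648-4104947, minus strand: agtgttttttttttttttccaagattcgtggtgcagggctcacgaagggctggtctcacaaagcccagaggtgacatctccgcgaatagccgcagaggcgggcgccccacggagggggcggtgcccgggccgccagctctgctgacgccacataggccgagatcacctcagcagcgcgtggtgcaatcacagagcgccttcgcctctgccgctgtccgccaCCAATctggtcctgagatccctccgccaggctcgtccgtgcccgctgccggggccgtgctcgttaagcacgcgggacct
Sc5d, chr9:42264251-42264550, minus strand: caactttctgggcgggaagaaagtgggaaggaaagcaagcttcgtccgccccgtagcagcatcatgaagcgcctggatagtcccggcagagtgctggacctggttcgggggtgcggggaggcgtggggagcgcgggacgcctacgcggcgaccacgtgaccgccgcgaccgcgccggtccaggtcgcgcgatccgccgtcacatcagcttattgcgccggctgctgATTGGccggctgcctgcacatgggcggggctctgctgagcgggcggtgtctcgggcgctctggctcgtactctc
Fasn, chr11:120824498-120824797, minus strand: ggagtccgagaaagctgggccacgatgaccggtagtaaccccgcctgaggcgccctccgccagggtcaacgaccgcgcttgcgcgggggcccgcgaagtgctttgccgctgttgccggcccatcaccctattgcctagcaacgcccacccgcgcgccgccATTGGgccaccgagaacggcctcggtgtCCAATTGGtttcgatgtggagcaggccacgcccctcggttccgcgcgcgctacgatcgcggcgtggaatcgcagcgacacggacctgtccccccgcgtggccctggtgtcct
In Hmgcs1 the sterol element began 137 bases before the start, and 3 of its 4 CCAAT boxes lay before the start, the nearest 45 bases away. The single CCAAT box began 29 bases before the start in Cyp51 and 24 in Sc5d. Fasn held 3, of which the pair beginning 62 and 59 bases before the start shared bases. These matches describe letters in a window and show no binding. The search took only the exact letters given, so a window without a match is not shown to lack a sterol element.

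The libraries held 13462737 to 20018962 counts, and the limit for a gene without counts, set at 3 counts, was 0.145 to 0.251 CPM. CPM, the unit used below, gives a gene's counts relative to the TMM-scaled size of its library. Cd36, the targeted gene, stood at 122, 65.2 and 28.5 CPM in CKO 1 to 3, against 90.5, 193 and 144 CPM in flox 1 to 3. Cd36 was thus higher in the library labelled CKO 1 than in flox 1, and all library names and directions below are those of the labels. Of 10 listed microglial markers 9 were counted, 0 of them at 0 in any library, with 5 positive and 4 negative fold changes and sums of 6157 to 9579 CPM in CKO and 6533 to 9901 CPM in flox libraries. The markers did not move together. Csf1r overlapped between the groups, at 658, 857 and 952 CPM in CKO 1 to 3 against 584, 934 and 740 CPM in flox 1 to 3, whereas Cx3cr1 stood at 130, 188 and 111 CPM in CKO 1 to 3, below all flox libraries at 221, 476 and 323 CPM. Sall1 stood at 1.16, 1.84 and 1.54 CPM in CKO 1 to 3, against 0.969, 17.5 and 16.8 CPM in flox 1 to 3, so that flox 2 and flox 3 stood apart. These 3 markers were picked after their values were seen, and the part of microglial makeup in the results below was not tested. Rod photoreceptor markers summed to 7088 to 19670 CPM in CKO and 7769 to 16682 CPM in flox libraries, and Müller glia and astrocyte markers to 424 to 1083 and 342 to 561 CPM, so other retinal RNA was in every library. Haemoglobin genes split the libraries across the labels, with 1862 to 4368 CPM in CKO 1, flox 2 and flox 3 and at most 0.356 CPM in CKO 2, CKO 3 and flox 1. Haemoglobin CPM, here and for the later cut at 100 CPM, is relative to the unscaled library total. By their codes CKO 2 and CKO 3, and likewise flox 2 and flox 3, can be the right and left eye of 1 mouse, in which case p-values over 3 against 3 libraries are too small. In such bulk libraries fewer cells of a type and less RNA per cell cannot be told apart.

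No gene of either branch passed the test between CKO and flox. With edgeR (quasi-likelihood, Benjamini-Hochberg adjustment over all genes, threshold 0.05), 0 of 26 members were called, where 0% of the 13477 genes tested were. DESeq2 called 0 of 26 members and 18 genes in all (0.134%). At an unadjusted p under 0.05 by edgeR, 1 member was higher in CKO (Fads1), where 1.45% of all genes were, and 0 members were lower, where 1.37% of all genes were. DESeq2 had the same 1 member at an unadjusted p under 0.05. The adjusted p of every member was 0.9996 by edgeR, so the fold changes below are given as values with their errors and not as called changes. With 3 libraries per group, a gene that was not called can still differ between the groups. Cd36, the targeted gene, was itself not called, and its groups overlapped. Its log2 fold change (CKO over flox) was -0.98 (SE 0.51, confidence interval -2.16 to 0.19). By edgeR its unadjusted p was 0.0896 and its adjusted p 0.9996, and DESeq2 gave an adjusted p of 0.9999. The count of 0 of 26 members called therefore does not show that the members were unchanged.

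Most fold changes were negative in the sterol branch and positive in the fatty acid branch, a split that depended on single libraries. In the sterol branch 13 of 17 log2 fold changes (CKO over flox) were negative, with a median of -0.17, and in the fatty acid branch 3 of 9 were, with a median of 0.12. Over all genes tested 6663 of 13477 (49.4%) were negative, with a median of 0.00374. Whether the branches differed was not tested. Without CKO 3, 10 of 17 sterol and 7 of 9 fatty acid genes were negative. The sterol count was also 10 of 17 with a haemoglobin term, and when libraries that share a code were summed. The sterol median was -0.049 without CKO 3, -0.066 without flox 2, -0.31 without flox 1 and -0.27 without CKO 1, and it was -0.047 with the haemoglobin term and -0.066 with shared codes summed. The fatty acid median turned negative without CKO 3 (-0.15) and without flox 2 (-0.045), was 0.35 without flox 1 and 0.29 without CKO 2, and was 0.019 with the haemoglobin term and 0.036 with shared codes summed. The negative count in the fatty acid branch was 1 of 9 without CKO 2 and 5 of 9 without flox 2. By step, 6 of the 7 genes that act after lanosterol were negative (median -0.38), as were 4 of 5 genes of the mevalonate and isoprenoid steps (median -0.09) and 2 of 3 of the squalene and lanosterol steps.

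**Figure D1:**
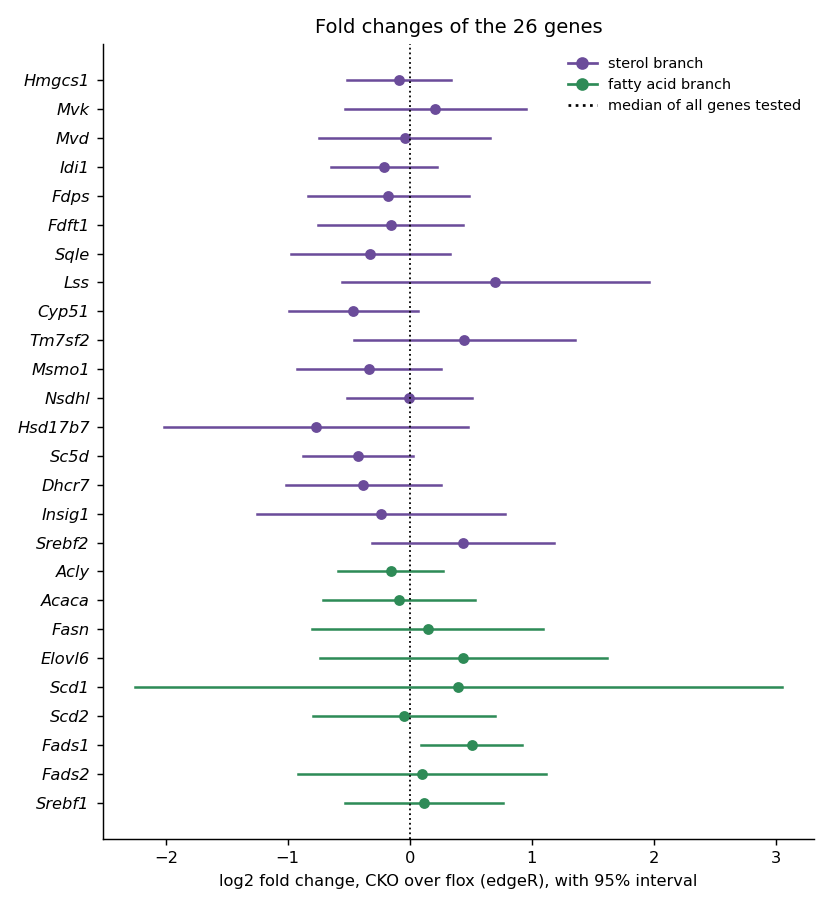
Log2 fold change of each gene, CKO over flox, from edgeR (points) with its 95% interval (lines), in pathway order from top to bottom; the dotted line is the median of all genes tested (0.00374). The interval of Fads1 lies above 0, from 0.09 to 0.92, and the intervals of the other 25 genes span 0.

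Groups did not overlap for 3 of the 26 members. All 3 CKO libraries lay below all flox libraries for 2 members, Cyp51 and Sc5d, where this held for 4.12% of all genes tested. All 3 CKO libraries lay above all flox libraries for 1 member, Fads1, where this held for 3.88% of all genes.

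Cyp51 encodes lanosterol 14-alpha-demethylase, the first enzyme after lanosterol. It stood at 12.6, 18.1 and 18.4 CPM in CKO 1 to 3, against 25.5, 22.6 and 19.6 CPM in flox 1 to 3. The nearest libraries of the groups, CKO 3 and flox 3, were close, and CKO 1 was the lowest. Its mean was 16.4 ± 3.28 CPM in CKO and 22.6 ± 2.94 CPM in flox (SD, n = 3 each), and its log2 fold change was -0.46 (SE 0.23, 95% interval -0.99 to 0.06, unadjusted p 0.0774 by edgeR). Without CKO 1 it was -0.31. Sc5d encodes the sterol C5-desaturase, which makes 7-dehydrocholesterol. It stood at 15.5, 19.2 and 19.8 CPM in CKO 1 to 3, against 24.1, 26.6 and 22.5 CPM in flox 1 to 3. Here too CKO 1 was the lowest library, and its log2 fold change was -0.43 (SE 0.20, interval -0.88 to 0.03, unadjusted p 0.0615 by edgeR) and -0.33 without CKO 1. Within the haemoglobin-negative libraries (CKO 2 and CKO 3 against flox 1) the log2 ratio was -0.48 for Cyp51 and -0.30 for Sc5d, and within the haemoglobin-positive libraries (CKO 1 against flox 2 and flox 3) it was -0.74 and -0.65.

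Other enzymes after lanosterol overlapped between the groups. Dhcr7, whose reductase makes cholesterol from 7-dehydrocholesterol, stood at 13.5, 8.37 and 10.6 CPM in CKO 1 to 3, against 11.6, 16.5 and 14.3 CPM in flox 1 to 3 (log2 fold change -0.38, SE 0.28). Msmo1, the C4-methylsterol oxidase, stood at 37.7, 44.2 and 27.4 CPM, against 33.2, 56.5 and 47.6 CPM in flox (-0.33, SE 0.26). For both genes flox 2 and flox 3 were the highest libraries, and flox 1 lay within the CKO range. Nsdhl and Hsd17b7 encode the dehydrogenase and the ketoreductase of the same demethylation. Nsdhl stood at 24.7, 23.4 and 17.5 CPM in CKO 1 to 3, against 25.9, 20.9 and 19.0 CPM in flox 1 to 3, a log2 fold change of -0.01 (interval -0.52 to 0.51). Hsd17b7 stood at 3.19, 1.76 and 3.44 CPM in CKO, against 5.57, 6.48 and 2.28 CPM in flox, with a log2 fold change of -0.77 whose interval ran from -2.02 to 0.48. Tm7sf2, a sterol C14-reductase, went the other way in its mean, at 7.17, 11.0 and 20.1 CPM in CKO 1 to 3 against 10.2, 7.41 and 10.5 CPM in flox 1 to 3 (0.45, SE 0.39). Its mean rested on CKO 3, without which the log2 fold change was -0.05. The counts of Tm7sf2 carry decimals in all 6 libraries.

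The squalene and lanosterol steps showed no common order of libraries. Sqle, the rate-limiting squalene epoxidase, stood at 10.9, 7.87 and 11.7 CPM in CKO 1 to 3, against 10.9, 11.2 and 16.0 CPM in flox 1 to 3 (log2 fold change -0.32, SE 0.28). Lss, which closes the sterol ring as lanosterol synthase, stood at 5.33, 3.77 and 3.14 CPM in CKO, against 1.31, 2.49 and 3.73 CPM in flox (0.70, interval -0.55 to 1.96). Lss was among the least abundant members, and flox 3 lay above CKO 3. Fdft1, squalene synthase, stood at 39.5, 28.1 and 25.5 CPM in CKO 1 to 3, against 25.1, 35.8 and 42.9 CPM in flox 1 to 3 (-0.16, SE 0.26). The exons of Fdft1 share 20.9% of their length with the opposite strand of Ctsb, the cathepsin B gene, and its counts carry decimals in all 6 libraries, so its values are uncertain.

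Genes of the mevalonate and isoprenoid steps differed little between the groups. Hmgcs1, the synthase that makes HMG-CoA, stood at 32.8, 30.2 and 24.4 CPM in CKO 1 to 3, against 30.8, 32.7 and 29.3 CPM in flox 1 to 3. Its log2 fold change of -0.09 had an interval of -0.51 to 0.33, and of all members it varied least across the 6 libraries, by 1.35-fold between the highest and lowest. Mevalonate kinase, Mvk, stood at 12.4, 7.87 and 7.09 CPM in CKO 1 to 3, against 6.49, 8.91 and 8.28 CPM in flox 1 to 3 (0.21, SE 0.32). The decarboxylase Mvd stood at 9.87, 7.70 and 5.86 CPM in CKO, against 8.57, 7.77 and 7.78 CPM in flox (-0.04, SE 0.31). In both CKO 1 was the highest and CKO 3 the lowest of the CKO libraries. Idi1, the isopentenyl diphosphate isomerase, stood at 31.1, 28.6 and 27.3 CPM in CKO 1 to 3, against 38.6, 34.4 and 27.8 CPM in flox 1 to 3 (-0.21, SE 0.19). Only flox 3 overlapped the CKO range. The exons of Hmgcs1 and Idi1 share 16.0% and 10.7% of their length with genes annotated on the opposite strand. Their levels are uncertain to that extent. Fdps, farnesyl diphosphate synthase, stood at 82.1, 53.8 and 40.7 CPM in CKO, against 49.8, 80.4 and 69.1 CPM in flox (-0.17, SE 0.29). Its exons share 77.4% of their length with Gm43738, a gene annotated on the same strand, which makes its level uncertain.

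**Figure D2:**
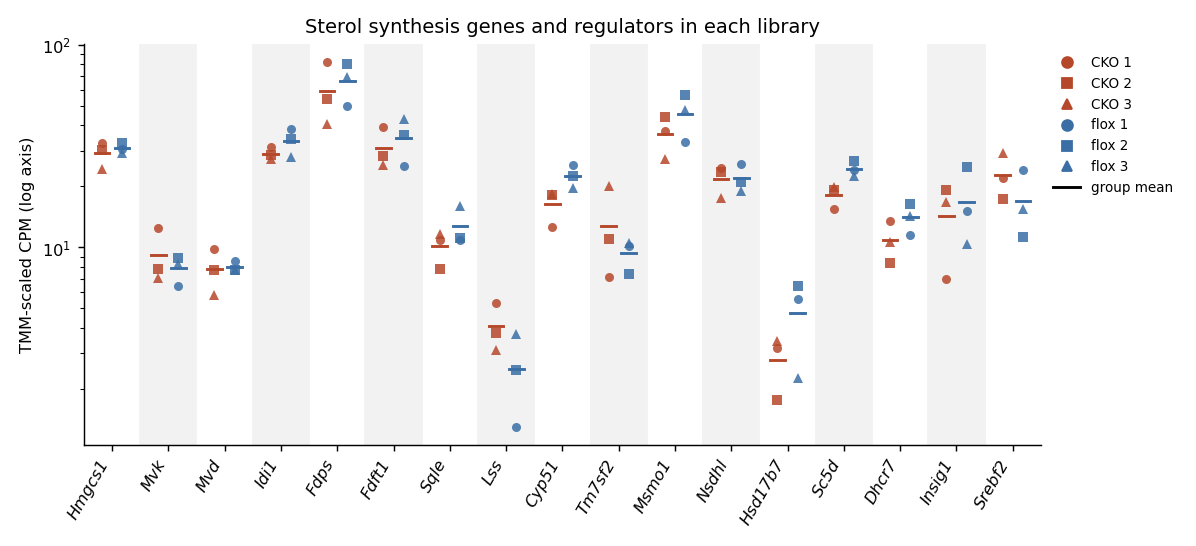
TMM-scaled CPM on a log axis for the 17 sterol genes, the enzymes in pathway order and then Insig1 and Srebf2, with CKO libraries left (red) and flox libraries right (blue) for each gene; symbols give the library and bars the group mean of 3 libraries. Cyp51 and Sc5d are the 2 genes with all CKO points below all flox points.

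The 2 sterol regulators lay on opposite sides. Insig1, which retains SREBPs in the endoplasmic reticulum and is itself one of their targets, stood at 6.99, 19.2 and 16.7 CPM in CKO 1 to 3, against 15.1, 24.9 and 10.4 CPM in flox 1 to 3. It spread 2.74-fold within CKO and 2.4-fold within flox, and its log2 fold change of -0.23 (interval -1.25 to 0.78) was 0.09 without CKO 1 and 0.17 without flox 2. Srebf2, the gene of SREBP2, stood at 21.9, 17.3 and 29.4 CPM in CKO, against 24.0, 11.2 and 15.6 CPM in flox (0.43, SE 0.32). Flox 1 lay within the CKO range for Srebf2.

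Markers of dividing cells, whose membranes need sterol, lay beside the sterol counts as follows. All 8 listed markers had a negative fold change, and their summed level was 598, 494 and 478 CPM in CKO 1 to 3, against 724, 839 and 562 CPM in flox 1 to 3, with 0 markers at 0 in any library. The summed level of the 17 sterol genes was 367, 331 and 309 CPM in CKO 1 to 3, against 347, 407 and 367 CPM in flox 1 to 3. CKO 2 and CKO 3 were the lowest and flox 2 the highest library in both sums, while CKO 1 lay within the flox range of each. Mki67, Top2a and Ccne2 had these lowest and highest libraries, whereas Mcm4, Mcm5, Pcna, Tyms and Rrm2 did not. Fdps, whose level is uncertain, is part of the sterol sum. The part of dividing cells in the sterol values was not tested.

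In the fatty acid branch only Fads1 had groups that did not overlap, with CKO above flox as for 3.88% of all genes tested. Fads1 encodes the delta-5 desaturase, which makes arachidonic and eicosapentaenoic acid. It stood at 46.6, 55.8 and 57.6 CPM in CKO 1 to 3, against 43.7, 33.9 and 34.9 CPM in flox 1 to 3. Every CKO library was above every flox library, with CKO 1 and flox 1 the closest. Its mean was 53.3 ± 5.91 CPM in CKO and 37.5 ± 5.40 CPM in flox (SD, n = 3 each), and its log2 fold change was 0.51 (SE 0.18, interval 0.09 to 0.92, unadjusted p 0.0227 and adjusted p 0.9996 by edgeR). Its log2 ratio was 0.37 in the haemoglobin-negative set and 0.44 in the haemoglobin-positive set. Monocyte markers, 6 of 7 with a positive fold change and 0 at 0 in any library, summed to 325, 647 and 737 CPM in CKO 1 to 3, against 563, 192 and 160 CPM in flox 1 to 3, with CKO 2 and CKO 3 the 2 highest libraries as for Fads1. Among the monocyte markers Ccr2 and S100a4 had these 2 libraries highest, whereas Ly6c2, Plac8, Hp, Chil3 and Vcan did not. The part of monocytes in the Fads1 values was not tested. Fads2, the delta-6 desaturase of the step before, is its neighbour on chromosome 19 and did not share this order, at 11.2, 7.45 and 21.2 CPM in CKO 1 to 3 against 18.5, 9.85 and 8.98 CPM in flox 1 to 3 (0.10, SE 0.44). The ratio of Fads1 to Fads2 CPM was 4.15, 7.48 and 2.71 in CKO 1 to 3, against 2.36, 3.45 and 3.89 in flox 1 to 3, and overlapped between the groups.

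The genes from acetyl-CoA to palmitate did not separate the groups. Acly, the citrate lyase that supplies cytosolic acetyl-CoA, stood at 59.7, 56.9 and 62.6 CPM in CKO 1 to 3, against 53.2, 66.1 and 80.4 CPM in flox 1 to 3 (log2 fold change -0.15, SE 0.19). Acaca, acetyl-CoA carboxylase, stood at 22.4, 12.6 and 16.3 CPM in CKO, against 15.9, 22.2 and 16.6 CPM in flox (-0.09, SE 0.27). Acly was almost level over the CKO libraries and spread over the flox libraries, and Acaca overlapped fully. Fasn, fatty acid synthase, stood at 17.5, 10.5 and 24.5 CPM in CKO 1 to 3, against 24.6, 10.5 and 12.3 CPM in flox 1 to 3, so that each group held a library at 10.5 CPM and another above 24 CPM. Its log2 fold change of 0.15 had an interval of -0.80 to 1.10.

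Elongation and delta-9 desaturation genes varied more between libraries than between groups. Scd2, the stearoyl-CoA desaturase gene of brain and other tissues, stood at 52.3, 37.5 and 79.3 CPM in CKO 1 to 3, against 81.3, 46.3 and 47.2 CPM in flox 1 to 3 (-0.05, interval -0.79 to 0.70). Scd1, the desaturase gene prominent in liver and fat, had only 2, 31 and 51 counts in CKO and 21, 5 and 44 counts in flox, or 0.123 to 2.62 and 0.259 to 2.78 CPM. The CKO 1 value lay below the 3-count limit of that library, 0.184 CPM. At that depth the log2 fold change of 0.40 had an interval of -2.25 to 3.05 and gives no direction. Elovl6, which lengthens palmitate, stood at 13.4, 4.69 and 4.99 CPM in CKO 1 to 3, against 6.83, 3.37 and 6.83 CPM in flox 1 to 3 (0.44, SE 0.51). Its higher CKO mean rested on CKO 1, without which the log2 fold change was -0.23. Srebf1, the gene of SREBP1, stood at 25.9, 20.0 and 36.8 CPM in CKO, against 33.2, 22.1 and 21.2 CPM in flox (0.12, SE 0.28).

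**Figure D3:**
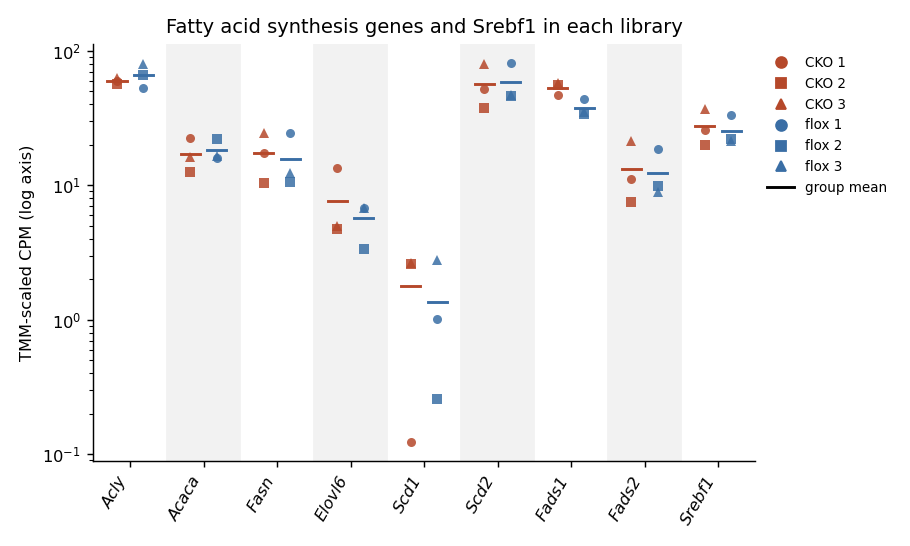
TMM-scaled CPM on a log axis for the 8 fatty acid synthesis genes and Srebf1, with CKO libraries left (red) and flox libraries right (blue) for each gene; symbols give the library and bars the group mean of 3 libraries. Fads1 is the gene with all CKO points above all flox points, and Scd1 spans the widest range, with its lowest library (CKO 1, 2 counts) under the 3-count limit.

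Across libraries, 4 of the 9 fatty acid genes shared one order that crossed the labels. Srebf1, Fasn, Scd2 and Fads2 had CKO 3 and flox 1 as their 2 highest libraries and CKO 2, flox 2 and flox 3 as their 3 lowest. Since they were grouped by these libraries, leaving out either had to move them: without CKO 3 their log2 fold changes were -0.15, -0.18, -0.37 and -0.41, and without flox 1 they were 0.35, 0.62, 0.27 and 0.50, in the same order of genes. In the sterol branch 1 of 17 genes (Srebf2) had the same 2 highest libraries, and among all genes tested 9.46% did. The median deviation of the fatty acid branch from each gene's mean over the 6 libraries was 0.01, -0.37 and 0.51 on the log2 scale in CKO 1 to 3, against 0.17, -0.28 and -0.22 in flox 1 to 3. For the sterol branch it was 0.13, -0.08 and -0.19 in CKO 1 to 3, against 0.04, 0.15 and 0.01 in flox 1 to 3, so that CKO 3 was the highest library of one branch and the lowest of the other. Müller glia and astrocyte markers summed to 424, 521 and 1083 CPM in CKO 1 to 3, against 561, 549 and 342 CPM in flox 1 to 3, and also had CKO 3 and flox 1 as the 2 highest libraries. All 7 markers of that list had a positive fold change and 0 were at 0 in any library. Rlbp1, Slc1a3, Aqp4 and Dkk3 had these 2 libraries highest, whereas Glul, Kcnj10 and Gfap did not. Glul, the most abundant, stood at 233 CPM in flox 1 against 334 CPM in flox 2. The sum of endothelial markers, at 33.7 to 127 CPM in CKO and 45.8 to 156 CPM in flox, had the same 2 highest libraries. Of 6 markers 1 was positive in fold change and 0 were at 0 in any library. Kdr and Flt1 had these 2 libraries highest, whereas Cldn5, Pecam1, Cdh5 and Esam did not. The part of these cells in the fatty acid values was not tested.

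**Figure D4:**
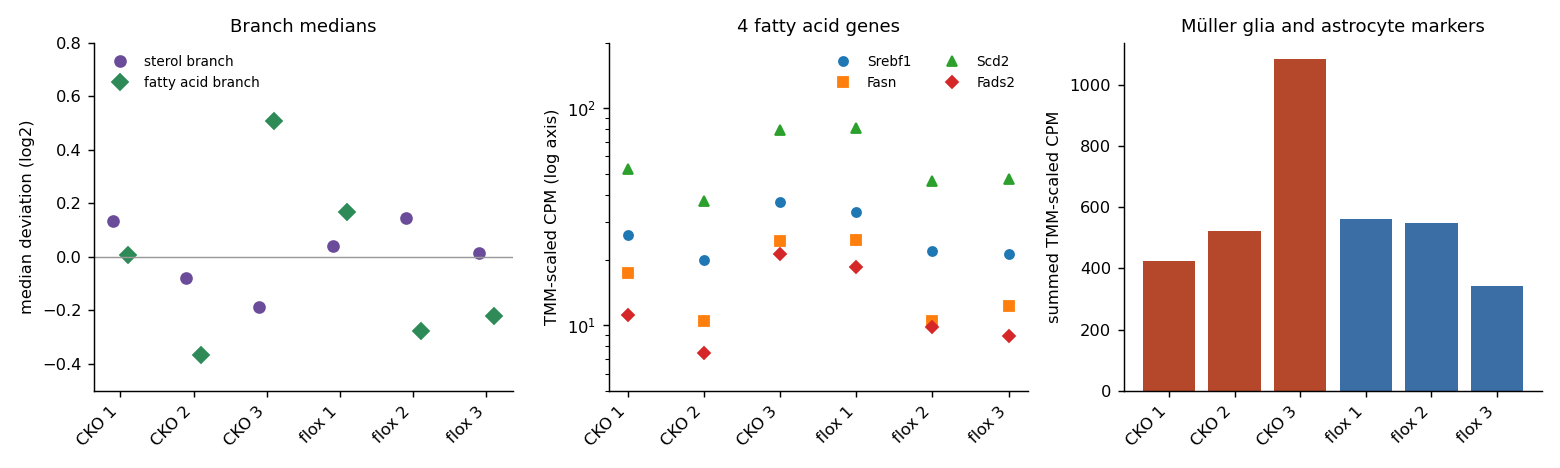
Left, median deviation (log2) of each branch from the genes' means over the 6 libraries; middle, TMM-scaled CPM (log axis) of Srebf1, Fasn, Scd2 and Fads2; right, summed TMM-scaled CPM of 7 Müller glia and astrocyte markers, with CKO libraries in red and flox libraries in blue. The 4 genes and the marker sum are highest in CKO 3 and flox 1, where the sterol medians are -0.19 and 0.04.

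Libraries that can share a mouse also differed from each other. A difference between single libraries carries more error than the fold change between means of 3, so the counts and medians here are a description. The difference between CKO 2 and CKO 3 exceeded the size of the log2 fold change for 14 of 26 members, and that between flox 2 and flox 3 did so for 16 of 26. In the fatty acid branch the median size of the difference was 0.36 between CKO 2 and CKO 3 and 0.22 between flox 2 and flox 3, against a median size of 0.15 for the fold changes. In the sterol branch these medians were 0.33, 0.25 and 0.32. Within the haemoglobin-negative libraries 11 of 17 sterol and 6 of 9 fatty acid genes were lower in CKO, and within the haemoglobin-positive libraries 8 of 17 and 2 of 9 were. The 5 genes lower in CKO in both sets were all sterol genes, namely Sqle, Cyp51, Dhcr7, Hsd17b7 and Sc5d. The share of all genes lower in both sets is not given here, so this count has no background. The first set rests on flox 1 alone for flox and the second on CKO 1 alone for CKO. Of the 9 fatty acid genes 1, Fads1, had the same sign in both sets.

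**Figure D5:**
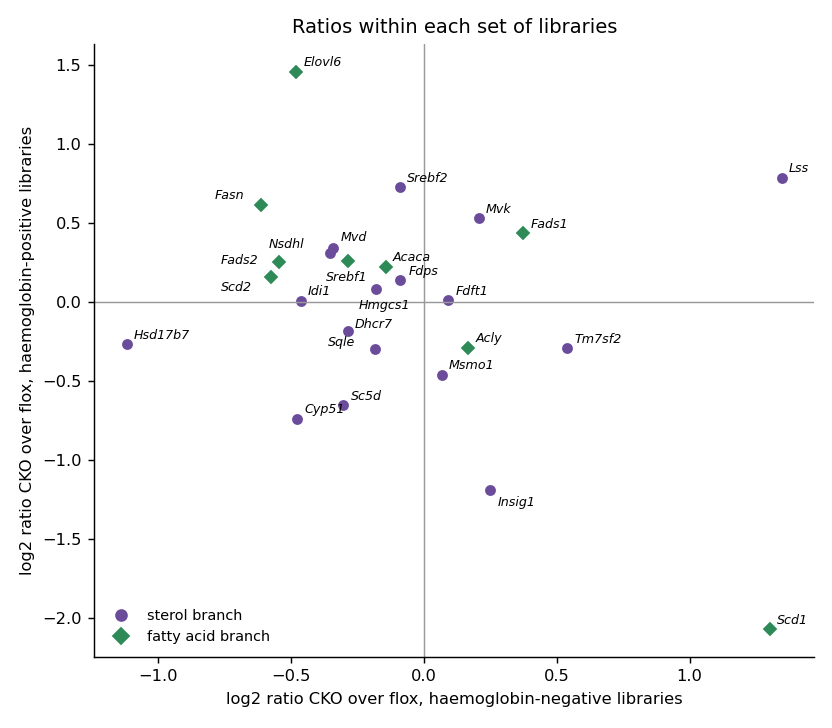
Log2 ratio of CKO over flox for each of the 26 genes (2 counts added) within the haemoglobin-negative libraries (x axis, CKO 2 and CKO 3 against flox 1) and within the haemoglobin-positive libraries (y axis, CKO 1 against flox 2 and flox 3). At the lower left, where both ratios are below 0, lie 5 sterol genes, and of the 9 fatty acid genes only Fads1 has ratios of the same sign.

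Levels were compared between genes as mean CPM per kilobase of exon over the 6 libraries. Fdps was the highest at 43.1, with the limit given above, followed by Msmo1 at 20.1, Acly at 13.7, Fads1 at 13.1 and Scd2 at 10.5. Acly and Fads1 did not differ beyond their spread between libraries, and Fads1 stood above Acly in CKO libraries, at 15.4, and below it in flox libraries, at 10.8. Fasn stood at 1.66 and Acaca at 1.86, and the lowest were Hsd17b7 at 0.750, Lss at 0.706 and Scd1 at 0.324.

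Other genes of the pathway did not pass the edgeR test either, with 0 of 31 tested called in either direction. Of 6 further sterol synthesis genes 3 were lower and 3 higher, with a median log2 fold change of 0.01. Acat2, the cytosolic thiolase, had a log2 fold change of -0.33 and Ggps1, geranylgeranyl diphosphate synthase, one of 0.14. In the list of SREBP processing, sterol sensing and uptake 5 of 10 tested genes were lower. Ch25h, the hydroxylase that makes 25-hydroxycholesterol, an oxysterol that restrains SREBP processing, stood at 18.3, 15.3 and 9.61 CPM in CKO 1 to 3, against 31.5, 46.8 and 30.8 CPM in flox 1 to 3. All CKO libraries lay below all flox libraries, with a log2 fold change of -1.34 (SE 0.29), an unadjusted p of 0.00164 and an adjusted p of 0.9996 by edgeR, while DESeq2 gave an adjusted p of 0.0493. Scap, the SREBP escort, had a log2 fold change of 0.40, Mylip, a ubiquitin ligase induced through liver X receptors, -0.34, and Stard4, a sterol carrier, -0.57, each with groups that overlapped. Of 15 further fatty acid synthesis genes 6 were lower and 9 higher, with a median of 0.02. Hacd2, a dehydratase of fatty acid elongation, stood at 70.6, 63.9 and 54.5 CPM in CKO 1 to 3, against 81.5, 104 and 69.9 CPM in flox 1 to 3 (-0.43, SE 0.20, unadjusted p 0.0584 by edgeR). CKO 1 and flox 3 overlapped. Mlxipl, the gene of the carbohydrate-responsive factor ChREBP, had a log2 fold change of -1.03 with an interval of -2.73 to 0.68. Flox 1, at 2.81 CPM, lay below all CKO libraries, whereas flox 2 and flox 3, at 34.7 and 25.4 CPM, lay above them. The log2 ratio of Mlxipl was 1.82 in the haemoglobin-negative set and -1.499 in the haemoglobin-positive set, so its direction rested on flox 2 and flox 3. Acss2, acetyl-CoA synthetase, had a log2 fold change of 0.40 and the elongase Elovl5 one of 0.29.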

How the data were processed

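The data are RNA-seq libraries of sorted retinal cells, 3 CKO and 3 flox, grouped by their titles. The authors deposited estimated counts per gene symbol, unscaled and in part with decimals. The submitters' processing notes name fastp 0.18.0, HISAT2 2.2.4 and the mm10 genome. How reads were assigned to genes, and whether strand was used, is not given in the sources used here, so genes that overlap (9 members, by GENCODE M21) cannot be separated by strand. Of 21956 rows, 83 without a symbol (0.0122% to 0.0185% of counts) were left out and 22 repeated rows summed. Counts were rounded to whole numbers.

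All genes passing filterByExpr were fitted on the group alone with edgeR 4.0.16 (R 4.3.3; TMM, robust quasi-likelihood, prior count 0.125), with Benjamini-Hochberg adjustment at 0.05. The alternatives were other scalings and filters, DESeq2 1.42.0, limma 3.58.1 voom with sample weights, libraries of a shared code summed, a title-number block, a haemoglobin term (libraries above 100 CPM) and each library left out. The test scripts were tried on simulated data. The 3-count limit covers counting error alone, because PCR copies of a molecule are counted as separate reads. The labels do not say that libraries are separate animals, so p-values measure the spread between these libraries. Members, lists and alternatives were chosen with earlier results of these data known. All members, Cd36 and up to 4 further genes of smallest p per list were to be named, and 2 of the latter are not reported here. Exon lengths and coordinates are GENCODE M21 on GRCm38, and promoters are RefSeq, GRCm38.p6.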

Additional observations from a re-analysis of the deposited data

How the results depend on the processing

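The count of members called was 0 in the edgeR fit and under each of the 15 alternatives. Over all genes 0 were called, against 18 by DESeq2 and 2 with the haemoglobin term. The sterol median of -0.17 was -0.047 with the haemoglobin term, -0.066 with shared codes summed and -0.29 with library totals, and ran from -0.31 to -0.049 with 1 library left out. The fatty acid median of 0.12 was 0.019, 0.036 and -0.0045 in those settings and ran from -0.15 to 0.35 with 1 library left out. The sterol branch had 13 negative genes, and 10 to 13 over the alternatives. The fatty acid branch had 3 negative genes, 5 with library totals alone (which moved the median of all genes to -0.12) and 1 to 7 with 1 library left out. The title number as a block could be fitted as a replicate block: it called 0 genes, gave a sterol median of -0.20, and changed no call and no sign. Same-numbered libraries did not deviate together (correlations of -0.32, 0.00510 and -0.33). With 3 libraries per group these values give no sign of a pairing by number and cannot exclude one. Of 26 members 10 kept their sign in every setting: Sqle, Idi1, Cyp51, Dhcr7, Msmo1, Hsd17b7 and Sc5d (negative), and Lss, Srebf2 and Fads1 (positive). Their sizes moved with 1 library left out: Sqle from -0.44 to -0.12, Idi1 from -0.33 to -0.10, Cyp51 from -0.56 to -0.31, Dhcr7 from -0.57 to -0.23, Msmo1 from -0.52 to -0.15, Hsd17b7 from -1.10 to -0.49, Sc5d from -0.49 to -0.33, Lss from 0.39 to 1.10, Srebf2 from 0.21 to 0.77 and Fads1 from 0.44 to 0.63. With shared codes summed the sign of the log2 fold change turned for Fdps (0.024), Fdft1 (0.034), Mvd (0.0012), Acaca (0.062) and Fads2 (-0.038). With the haemoglobin term it turned for Fdps (0.029), Fdft1 (0.049), Mvd (0.0024), Acaca (0.039), Scd1 (-0.75) and Fads2 (-0.057). It turned for Nsdhl with DESeq2 size factors (0.0053) and DESeq2 (0.0045), for Srebf1 (-0.0045) and Fads2 (-0.015) with library totals, and for Scd2 with voom (0.040). With 1 library left out, values crossed 0 for Hmgcs1 (-0.19 to 0.027), Fdps (-0.49 to 0.034), Fdft1 (-0.37 to 0.028), Nsdhl (-0.11 to 0.13), Mvd (-0.25 to 0.13), Mvk (-0.081 to 0.37), Insig1 (-0.51 to 0.17), Tm7sf2 (-0.049 to 0.73), Srebf1 (-0.15 to 0.35), Fasn (-0.18 to 0.62), Acaca (-0.33 to 0.085), Acly (-0.29 to 0.0038), Scd1 (-0.092 to 1.47), Scd2 (-0.37 to 0.27), Elovl6 (-0.23 to 0.69) and Fads2 (-0.41 to 0.50). The cause was not tested. Scd1, Lss and Hsd17b7 had the widest intervals and the lowest levels per kilobase of exon among the members. The part of low counts in these intervals was not tested.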
